A study of Homo sapiens with 19 samples.

Results

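The long noncoding RNA SCIRT and 8 genes around it on the short arm of chromosome 6 were followed in RNA-seq of MDA-MB-231, an established triple-negative breast cancer cell line. The 9 genes were taken by name, SCIRT as RP5-1120P11.1, out of 30710 genes listed in any of 3 expression tables, and the question was whether the neighbours followed SCIRT in spheres and in its knockdown. The culture and siSCIRT tables were each compared within themselves, as was the siEZH2 table. The siSCIRT and siEZH2 tables listed all 9 genes, and the culture table listed 8, without RP5-1120P11.3.

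Adherent cells were grown in DMEM with 10% FCS (n = 2 libraries). Spheres were cells of the same line kept in suspension on non-adherent plates in DMEM/F12 supplemented with B27 and with 20 ng/ml each of EGF and FGF. One pair of sphere libraries was taken after 16 h (n = 2) and another after 5 d (n = 2). Attachment, medium, serum and growth factors differed together, so their parts in any sphere difference cannot be told apart. In the siRNA tables, cells were reverse transfected and held for 48 h in sphere medium, so controls and knockdowns share those conditions. One table compared siSCIRT 1 and siSCIRT 2, 2 siRNAs against SCIRT, with the control siRNA siNC (n = 3 each), and the other compared siEZH2 with its own siNC (n = 2 each). All libraries come from 1 cell line. Nothing in the labels tells whether the replicates of a group began as separate cultures, and the p-values therefore describe the scatter among these libraries, which may be technical. The labels give no sequencing batch.

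SCIRT is transcribed in sphere-forming breast cancer cells and has been described as acting beside EZH2, the catalytic Polycomb protein that methylates histone H3. Long noncoding RNAs can act on genes next to them on the chromosome, or on genes elsewhere, and reading neighbours beside the RNA's own level is the usual first look at the former. The protein-coding neighbours have unrelated roles. VEGFA encodes the main growth factor of blood vessels and is a textbook target of hypoxia-inducible factors. HSP90AB1 encodes the constitutive cytosolic HSP90 chaperone, SLC29A1 the nucleoside transporter ENT1, MAD2L1BP the MAD2-binding protein p31comet of the spindle checkpoint, RSPH9 a radial spoke head protein of motile cilia, and TMEM63B an osmotically and mechanically gated cation channel.

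The layout was read from GENCODE 29 on GRCh38, which is not the hg19 build named in the submitters' processing notes. The expression tables give no coordinates, so this layout places the genes and was not used in counting. SCIRT lies on the minus strand at chr6:43995723-44074652, a span of 78.9 kb, with 7 annotated exons in 2 transcripts. The long transcript starts at the outer end, and the short one starts 71.0 kb further along, within C6orf223. C6orf223, on the plus strand at chr6:44000580-44005958, sits wholly inside the SCIRT span, and RefSeq now lists it as the noncoding gene LINC03040. The pair share exon sequence on opposite strands, 263 bases in 3 SCIRT exons. RP5-1120P11.3, a plus-strand transcript at chr6:44073913-44077952, covers the whole first exon of the long SCIRT transcript, 156 bases. The library kit does not mark strand, so reads from those shared bases cannot be told apart.

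The other neighbours share no exon with SCIRT. Measured from start to start in plus-strand direction, MAD2L1BP lies -445.1 kb from SCIRT, RSPH9 -429.6 kb and VEGFA -304.5 kb. On the far side TMEM63B lies 52.3 kb away, SLC29A1 144.9 kb and HSP90AB1 171.5 kb. RSPH9 shares 604 exon bases with MRPS18A on the opposite strand, 23.0% of its exon sequence, and the antisense gene RP1-261G23.7 has all 188 of its bases inside VEGFA exons.

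**Figure D1:**
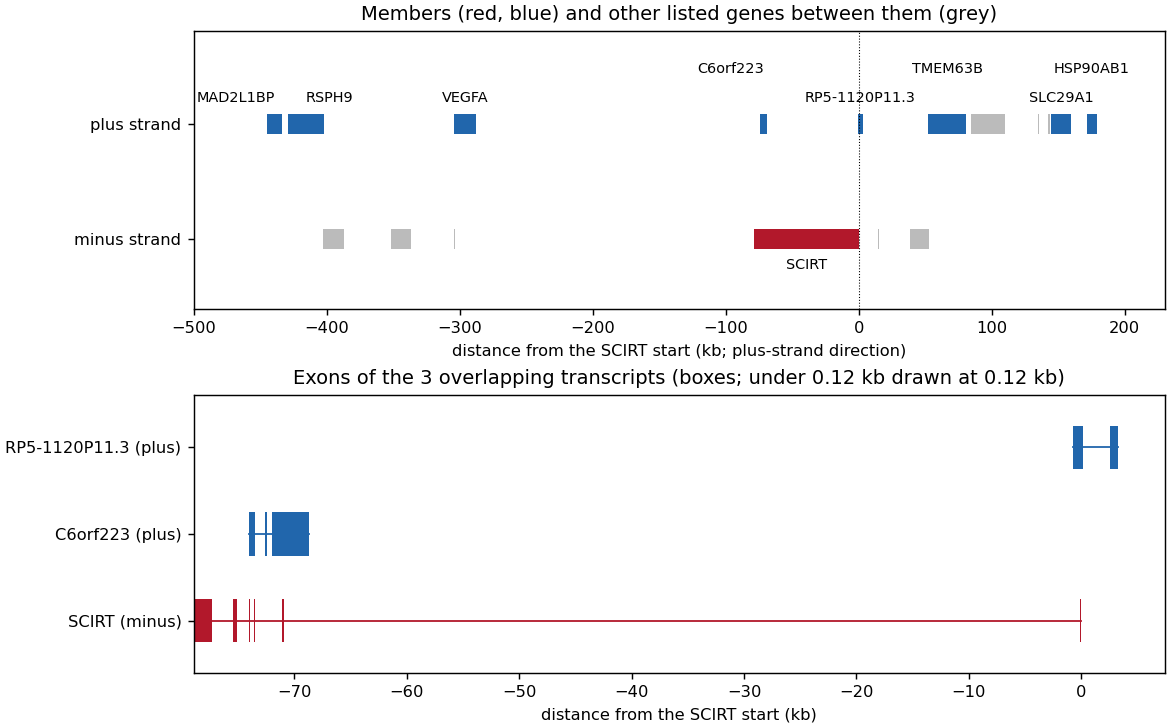
Map of the locus. The upper panel places the 9 genes (SCIRT red, the others blue) and the 8 other listed genes between them (grey) by strand and distance in kb from the SCIRT start; the lower panel shows the exons of SCIRT, C6orf223 and RP5-1120P11.3. C6orf223 overlaps the exons at the far end of SCIRT and RP5-1120P11.3 overlaps its first exon.

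SCIRT and C6orf223 are shown by their promoters because they were the 2 genes of the locus that fell together when SCIRT was targeted. Each window runs from 250 bases before to 50 bases after an annotated start, from RefSeq on GRCh38.p14, 5′ to 3′ on the gene's own strand. Capitals mark ACGTG or GCGTG, the core letters of a hypoxia response element.
SCIRT, long transcript, chr6:44074603-44074902, minus strand: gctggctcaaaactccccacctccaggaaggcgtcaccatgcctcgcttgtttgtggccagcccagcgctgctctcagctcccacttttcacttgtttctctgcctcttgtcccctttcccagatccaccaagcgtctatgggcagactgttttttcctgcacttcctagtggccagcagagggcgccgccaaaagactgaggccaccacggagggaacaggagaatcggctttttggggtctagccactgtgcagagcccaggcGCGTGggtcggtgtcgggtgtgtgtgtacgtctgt
SCIRT, short transcript, chr6:44003601-44003900, minus strand: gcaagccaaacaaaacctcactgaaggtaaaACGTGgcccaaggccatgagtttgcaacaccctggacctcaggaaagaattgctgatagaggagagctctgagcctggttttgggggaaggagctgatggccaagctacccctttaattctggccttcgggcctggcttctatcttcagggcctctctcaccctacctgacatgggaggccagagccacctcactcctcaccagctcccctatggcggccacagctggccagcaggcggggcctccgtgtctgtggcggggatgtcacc
C6orf223, chr6:44000335-44000634, plus strand: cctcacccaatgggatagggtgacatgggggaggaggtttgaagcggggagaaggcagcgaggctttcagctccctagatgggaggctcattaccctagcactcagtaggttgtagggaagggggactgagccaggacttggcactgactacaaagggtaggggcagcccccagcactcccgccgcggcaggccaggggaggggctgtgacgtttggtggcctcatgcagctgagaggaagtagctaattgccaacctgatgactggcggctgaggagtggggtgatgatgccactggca
The long SCIRT window holds GCGTG from base 16 of the transcript, counting the start as 1, and the short one holds ACGTG at -219 before its start. Neither motif is in the C6orf223 window. Searched on both strands and allowing overlap with other motifs, ACGTG was in 21.4% and GCGTG in 36.5% of 35116 RefSeq promoter windows of the same length. Over the 13 windows found for 7 of the 9 genes, ACGTG occurred in 5 and GCGTG in 6. VEGFA and RP5-1120P11.3 had no window. A match is a description of letters, not of binding.

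Values below are normalized counts, reads divided by the authors' size factor for each library, set within a table. This is not a scaling to equal library totals. Log2 fold changes are on the log2(normalized count + 1) scale with their SE. Calls are at a limma adjusted p under 0.05 over all genes of a table with a mean of at least 10. Of the 8 genes listed for culture, all but C6orf223 passed that filter, and in both siRNA tables all 9 passed it. Libraries held 6104222 to 14781941 reads in the culture table, 38635418 to 62218847 in the siSCIRT table and 27989577 to 38955312 in the siEZH2 table. The line's mesenchymal markers VIM, CD44 and AXL stood at 256 CPM (reads scaled to the total of a library) or more in every library. CDH1 stayed at or below 2.34 CPM and ESR1 at or below 0.293 CPM, while KRT18 and ERBB2, chosen as low markers, were at 122 to 328 and 52.7 to 80.5 CPM.

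SCIRT was lowest in adherent cells and rose in spheres. It stood at 3.77 and 3.04 in the adherent libraries, 5 reads in each. At 16 h it stood at 45.8 and 29.3, and at 5 d at 62.1 and 73.9. In bulk RNA, more cells with a transcript and more transcript per cell cannot be told apart. No sphere library came near the adherent ones, and the groups at the 2 sphere times did not overlap either. The means differed 11.0-fold at 16 h (log2 fold change 3.10 ± 0.41, limma adjusted p = 4.24e-08) and 20.0-fold at 5 d (3.97 ± 0.41, limma adjusted p = 1.77e-10). Both comparisons use the same adherent libraries. The rise exceeded that of 98.7% of the genes tested at 16 h and 99.7% at 5 d. The fold rests on 10 adherent reads in all, with an exact 95% Poisson interval of 4.8 to 18.4 that covers counting error only. From 16 h to 5 d SCIRT differed by 0.87 ± 0.41, with a limma adjusted p of 0.0799 that missed the threshold. This call turned with the method, since edgeR gave an adjusted p of 0.0325 and a fit of the compared groups alone 0.0149.

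Both siRNAs lowered SCIRT. Control libraries stood at 264, 287 and 256. Under siSCIRT 1 the values were 121, 112 and 127, and under siSCIRT 2 they were 159, 105 and 117. All 6 knockdown libraries lay below all 3 controls. The log2 fold changes were -1.16 ± 0.16 for siSCIRT 1 (limma adjusted p = 0.000325) and -1.10 ± 0.16 for siSCIRT 2 (limma adjusted p = 0.000659), and their mean was -1.13 ± 0.14, or 0.459-fold. These comparisons share the 3 control libraries. Only 0.193% of all genes tested had a lower value for the mean of both siRNAs. Between the siRNAs SCIRT differed by -0.06 ± 0.16, with a 95% interval from -0.41 to 0.28.

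EZH2 knockdown left SCIRT with values that did not pass the test. SCIRT stood at 144 and 196 in the controls and at 143 and 118 with siEZH2, a difference of -0.37 ± 0.18 with a limma adjusted p of 0.239. The groups did not overlap, but the closest libraries of each were 144 and 143. EZH2 itself stood at 518 and 529 in these controls and at 275 and 278 with siEZH2.

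On the CPM scale, adherent cells had the lowest SCIRT level, 0.338 to 0.417. Next came siSCIRT 2 at 2.02 to 3.01, siSCIRT 1 at 2.14 to 2.47, 16 h spheres at 2.72 to 4.27 and siEZH2 at 3.34 to 4.11. Above these lay the siEZH2 control at 4.40 to 5.70, the siSCIRT control at 4.87 to 5.45 and 5 d spheres at 6.68 to 7.86. The range of siSCIRT 1 lay inside that of siSCIRT 2, that of siEZH2 lay inside that of 16 h spheres, and the ranges of the 2 controls overlapped. The range of siSCIRT 2 also overlapped that of 16 h spheres, and no other ranges overlapped. Order across tables is a description only. The tables listed 19021 (culture), 26955 (siSCIRT) and 28870 (siEZH2) genes, and whether overlapping genes were counted alike in them was not tested.

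**Figure D2:**
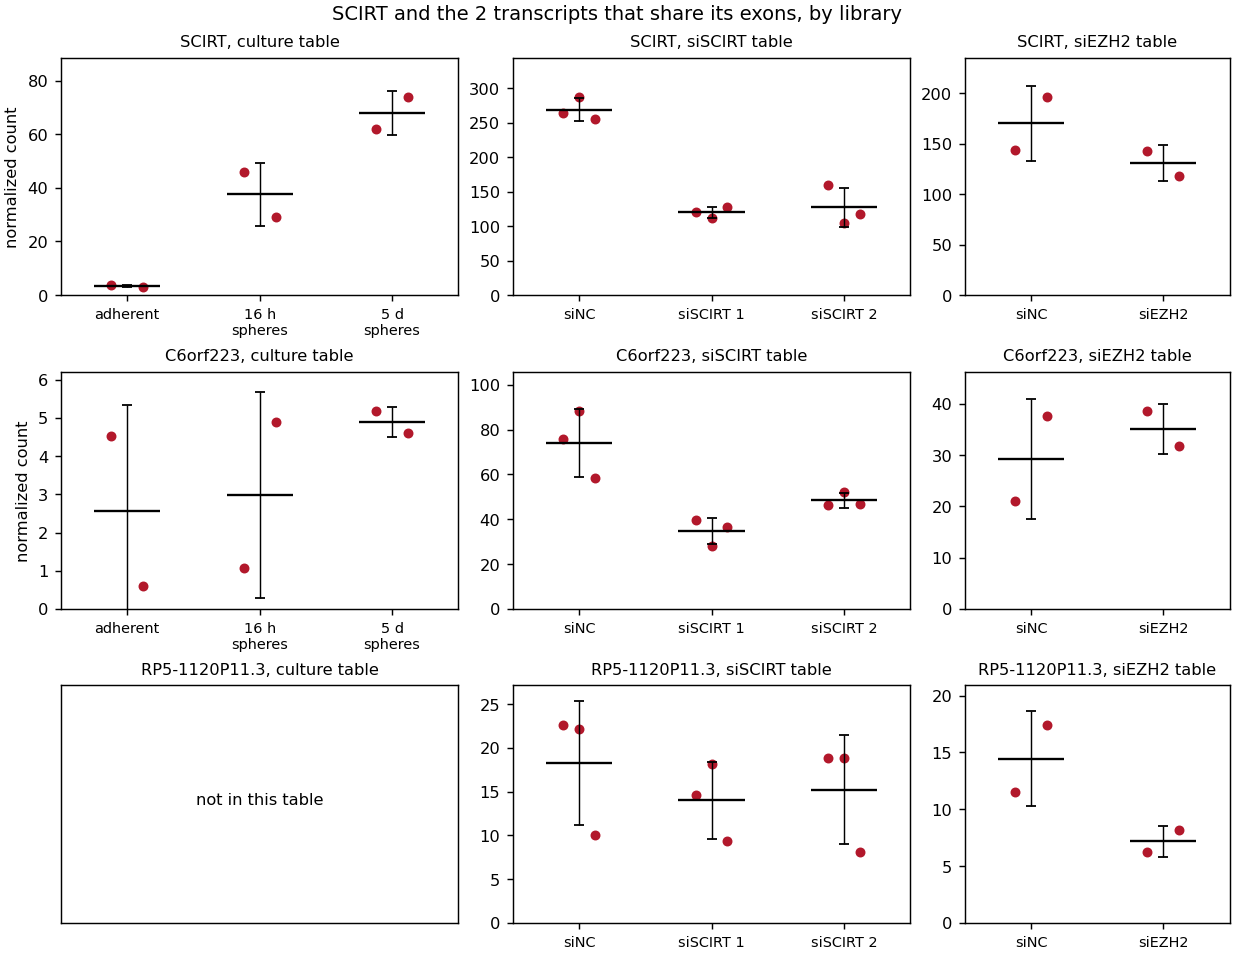
Normalized count of SCIRT (top), C6orf223 (middle) and RP5-1120P11.3 (bottom) in each library (points), with group mean (line) and SD (bar), for the culture, siSCIRT and siEZH2 tables; each panel has its own axis from 0. SCIRT climbed from 3.77 and 3.04 in adherent cells to 62.1 and 73.9 in 5 d spheres while C6orf223 stayed at 5.18 or below, and both were lower in siSCIRT libraries than in siNC.

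C6orf223, the transcript inside the SCIRT span, had few reads in the culture table and was not called in spheres. It had 6 and 1 reads in the adherent libraries, 1 and 4 at 16 h and 5 and 3 at 5 d, a normalized count of 0.609 to 5.18 across all 6. That mean fell under the filter. Fitted with no filter, its log2 fold change was 0.23 ± 0.77 at 16 h (limma adjusted p = 0.858) and 0.98 ± 0.77 at 5 d (limma adjusted p = 0.34). At 5 d the 2 libraries together held 108 reads of SCIRT and 8 of C6orf223. The gene-to-SCIRT ratio within libraries was tested directly, with no filter, an alternative added after seeing the data. On the log2 scale it changed by -2.87 ± 0.84 at 16 h (limma adjusted p = 0.000699) and by -2.99 ± 0.84 at 5 d (limma adjusted p = 0.000391). Few reads lie behind these values. Every ratio carries SCIRT's own scatter, which the fit pooled over genes as if independent. Ratio SEs and p-values, here and below, may therefore be too small.

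When SCIRT was targeted, C6orf223 fell. Control libraries stood at 75.8, 88.2 and 58.2, siSCIRT 1 at 39.5, 28.2 and 36.4, and siSCIRT 2 at 46.2, 52.3 and 46.6. Every knockdown library was below every control, and siSCIRT 1 lay below siSCIRT 2. The fall was -1.07 ± 0.24 with siSCIRT 1 (limma adjusted p = 0.00891), while siSCIRT 2 gave -0.59 ± 0.24 and missed the threshold (limma adjusted p = 0.138). Their mean was -0.83 ± 0.20 (limma adjusted p = 0.0131). That call was lost without control replicate 1 (limma adjusted p = 0.0621) or control replicate 2 (0.0674). Its change differed from SCIRT's by 0.30 ± 0.29, with a 95% interval from -0.26 to 0.86 (limma adjusted p = 0.293), which leaves room for a fall smaller than SCIRT's by that upper bound. The 263 shared exon bases mean that SCIRT reads may be counted for C6orf223, and their part in this fall was not tested. With siEZH2, C6orf223 stood at 38.6 and 31.7 against 21.0 and 37.6, overlapping groups with a difference of 0.30 ± 0.30 (limma adjusted p = 0.642).

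RP5-1120P11.3, the transcript over SCIRT's first exon, was low and did not pass a test. In the siSCIRT table its controls stood at 22.6, 22.1 and 10.1, siSCIRT 1 at 14.6, 18.1 and 9.36 and siSCIRT 2 at 18.8, 18.8 and 8.10. All 3 groups overlapped, and the mean change was -0.29 ± 0.38 (limma adjusted p = 0.682). The ratio to SCIRT rose by 0.84 ± 0.41 (limma adjusted p = 0.042), and that call was lost without any 1 of 5 libraries: control replicate 2 or 3, siSCIRT 1 replicate 1 or 2, or siSCIRT 2 replicate 2, at adjusted p of 0.0518 to 0.282. With siEZH2 it stood at 6.22 and 8.14 against 11.5 and 17.4, no overlap, a difference of -0.90 ± 0.45 with a limma adjusted p of 0.259.

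VEGFA rose in spheres with SCIRT at first and then took another course. Adherent libraries stood at 2310 and 2222, 16 h spheres at 7712 and 7768, and 5 d spheres at 3945 and 4169. The 3 groups were far apart beside the spread within pairs. Against adherent cells VEGFA rose by 1.77 ± 0.03 at 16 h (limma adjusted p = 6.22e-33) and by 0.84 ± 0.03 at 5 d (limma adjusted p = 3.48e-22), and it fell by 0.93 ± 0.03 from 16 h to 5 d (limma adjusted p = 1.42e-23). SCIRT stood higher, not lower, at the end of that interval. Relative to SCIRT, VEGFA changed by -1.33 ± 0.33 at 16 h (limma adjusted p = 6.44e-05) and by -3.13 ± 0.33 at 5 d. With a pseudocount of 8, which weighs down the low adherent SCIRT counts, the 16 h ratio shrank to -0.21 and missed the threshold (limma adjusted p = 0.449).

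VEGFA rose in the SCIRT knockdown, opposite to SCIRT. Controls stood at 61112, 63190 and 51419, siSCIRT 1 at 78544, 73463 and 75966 and siSCIRT 2 at 82106, 69707 and 82785. All 6 knockdown libraries lay above all 3 controls. The rise was 0.38 ± 0.09 with siSCIRT 1 (limma adjusted p = 0.0114), 0.42 ± 0.09 with siSCIRT 2 (limma adjusted p = 0.00683) and 0.40 ± 0.08 for the mean of both (limma adjusted p = 0.00235). Without control replicate 3, the lowest control, the siSCIRT 1 call was lost (limma adjusted p = 0.0685). With eBayes without trend or robust, the calls of siSCIRT 1 (adjusted p = 0.0718) and siSCIRT 2 (0.058) were both lost. VEGFA's change differed from SCIRT's by 1.53 ± 0.16 on the log2 scale. With siEZH2 it stood at 61139 and 62850 against 51402 and 62264, overlapping, with a difference of 0.13 ± 0.13 (limma adjusted p = 0.65).

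The antisense gene RP1-261G23.7, whose 188 bases lie within VEGFA exons, was listed in the culture table and had VEGFA's course. It stood at 169 and 133 in adherent cells, 735 and 703 at 16 h and 416 and 404 at 5 d, rises of 2.25 ± 0.11 and 1.44 ± 0.11 (limma adjusted p = 1.48e-19 and 1.04e-13). Without strand, its reads and VEGFA's cannot be told apart.

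VEGFA's partners and other hypoxia targets give its setting. Of 12 hypoxia targets, all 12 rose at 16 h, where 27.4% of all genes tested rose. At 5 d 11 rose and 1 fell, where 26.3% of all genes rose and 28.9% fell, and 10 fell from 16 h to 5 d, as did 25.5% of all genes. The same shape was seen in LDHA, the lactate dehydrogenase subunit, which rose by 2.54 ± 0.01 and 1.38 ± 0.01 at those times, and in NDRG1, by 2.92 ± 0.02 and 1.62 ± 0.02. With SCIRT knocked down (mean of both siRNAs), where 6.82% of all genes rose and 7.58% fell, 2 of 12 rose, CA9, a carbonic anhydrase of the cell surface, by 0.52 ± 0.12 (limma adjusted p = 0.00953) and P4HA1, a collagen prolyl hydroxylase subunit, by 0.27 ± 0.09 (limma adjusted p = 0.0481). With siEZH2, 3 of 12 rose, ADM, EGLN3 and LDHA, where 3.90% of all genes rose. Of the other VEGF ligands and receptors tested, 4 of 7 rose and 2 fell at 16 h, where 53.9% of all genes were called in either direction. There PGF, a second ligand of the VEGF receptor FLT1, rose by 2.14 ± 0.10 and the co-receptor NRP1 by 1.14 ± 0.03. At 5 d, 3 of 7 rose and 3 fell, where 55.2% of all genes were called. Under both siSCIRTs taken as a mean, where 14.4% of all genes were called, 2 of 8 rose and 1 fell: the ligands VEGFB (0.30 ± 0.07) and PGF (0.44 ± 0.10), and the co-receptor NRP2 (-0.28 ± 0.08). With siEZH2, where 6.84% of all genes were called, 2 of 7 rose, VEGFC and NRP2, and 1 fell, NRP1.

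**Figure D3:**
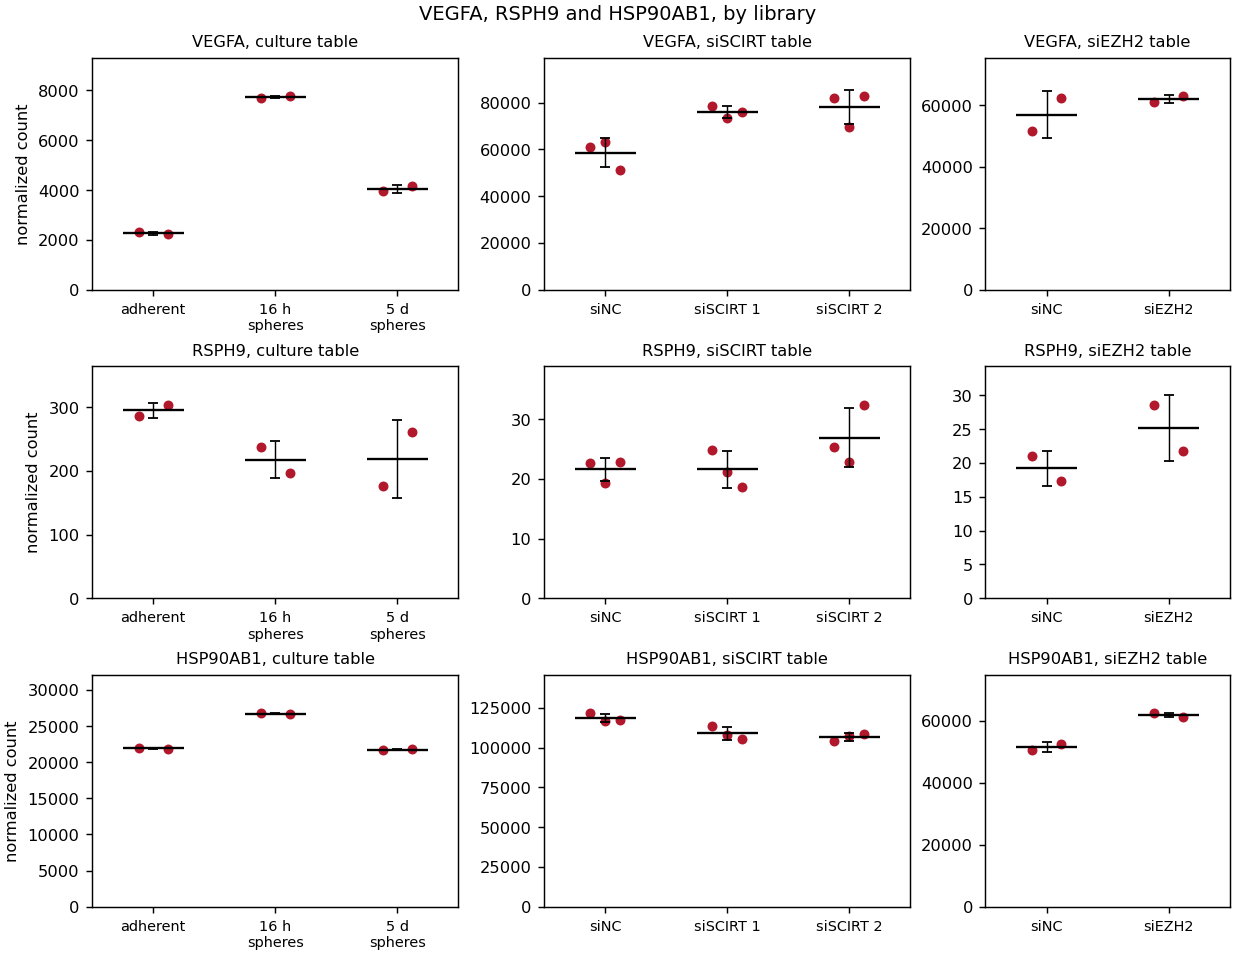
Normalized count of VEGFA (top), RSPH9 (middle) and HSP90AB1 (bottom) in each library (points), with group mean (line) and SD (bar), for each table; each panel has its own axis from 0. VEGFA peaked at 16 h (7712 and 7768) and was higher in all 6 siSCIRT libraries than in siNC; RSPH9 and HSP90AB1 did not pass the test in either siRNA table.

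HSP90AB1, the abundant chaperone gene, moved little. It stood at 22006 and 21900 in adherent cells, 26763 and 26650 at 16 h and 21689 and 21829 at 5 d. The 16 h libraries were the high pair. In CPM the gap was smaller, at 2430 in both adherent libraries and 2490 and 2480 at 16 h. At 16 h it rose by 0.28 ± 0.01 (limma adjusted p = 5.77e-19), a direction that quantile normalization turned to -0.41, and at 5 d it differed from adherent cells by -0.01 ± 0.01 (limma adjusted p = 0.481; -0.24 and called with quantile normalization). In the siSCIRT table the controls stood at 121494, 116886 and 117085, siSCIRT 1 at 113590, 108137 and 105666, and siSCIRT 2 at 103935, 107001 and 108699. Knockdown libraries all lay below controls, but the mean difference of -0.14 ± 0.06 missed the threshold (limma adjusted p = 0.118), and DESeq2 called it (adjusted p = 0.0298). With siEZH2 it stood at 62439 and 61362 against 50522 and 52688, no overlap, a difference of 0.26 ± 0.13 with a limma adjusted p of 0.262. Of 10 other genes of the chaperone system, 4 rose and 1 fell at 16 h, a share near the 53.9% called over all genes. There the endoplasmic reticulum form HSP90B1 rose by 0.50 ± 0.02 and the inducible form HSP90AA1 fell by 0.28 ± 0.02. At 5 d, 1 rose and 5 fell, near the 55.2% called over all genes. Of these 10, TRAP1, the mitochondrial form, was the 1 that passed in the SCIRT knockdown (-0.29 ± 0.08), where 14.4% of all genes passed, and with siEZH2 none of 10 passed under limma.

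SLC29A1, the nucleoside transporter gene, rose slightly at 16 h and fell slightly at 5 d in normalized counts. It stood at 1963 and 2009 in adherent cells, 2213 and 2219 at 16 h and 1774 and 1833 at 5 d. The 3 groups did not overlap. The changes were 0.16 ± 0.05 (limma adjusted p = 0.00352; 0.01 and not called with quantile normalization) and -0.14 ± 0.05 (limma adjusted p = 0.00978; not called with DESeq2, at 0.0589). The 16 h call was lost without adherent replicate 1 (limma adjusted p = 0.0591), and the 5 d call without adherent replicate 2 (0.108) or 5 d replicate 1 (0.0606). Both were lost with eBayes without trend or robust (0.108 and 0.141). Across the siSCIRT table its 9 libraries ran from 10665 to 12964 and the groups overlapped, with a mean difference of -0.02 ± 0.06 and a 95% interval from -0.15 to 0.12. With siEZH2 it stood at 13230 and 13574 against 10038 and 12435, a difference of 0.26 ± 0.12 (limma adjusted p = 0.211). Of the other nucleoside transporters and salvage kinases, 5 of 5 tested fell at 16 h and 3 of 5 at 5 d, where 26.5% and 28.9% of all genes fell. The thymidine kinase TK1 changed by -2.07 ± 0.14 at 16 h. After SCIRT knockdown, where 7.58% of all genes fell and 6.82% rose, 3 of 7 fell, the kinases TK1, ADK and DCK, and the transporter SLC29A4 rose by 0.69 ± 0.13. With siEZH2 1 of 6 rose, TK1 by 1.02 ± 0.14, where 3.90% of all genes rose, and none fell.

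MAD2L1BP, whose product works with TRIP13 to take apart MAD2 complexes of the spindle checkpoint, fell in 5 d spheres. It stood at 490 and 492 in adherent cells, 442 and 401 at 16 h and 347 and 327 at 5 d, groups that did not overlap. The difference was -0.22 ± 0.10 at 16 h (limma adjusted p = 0.0581; 0.0495 with edgeR) and -0.54 ± 0.10 at 5 d (limma adjusted p = 1.46e-05). Its 9 libraries in the siSCIRT table ran from 1810 to 2412 and its 4 in the siEZH2 table from 1392 to 1548, with overlapping groups in both. It differed in the SCIRT knockdown by 0.02 ± 0.08, with a 95% interval from -0.16 to 0.20, and with siEZH2 by -0.06 ± 0.12 (limma adjusted p = 0.857). Of its 6 checkpoint partners, 4 fell and 1 rose at 16 h, where 53.9% of all genes were called, and 5 fell at 5 d, where 28.9% fell. After SCIRT knockdown, where 7.58% of all genes fell, 4 of 6 fell, among them CDC20 (-0.86 ± 0.08), BUB1B (-0.73 ± 0.08) and MAD2L1 (-0.70 ± 0.10). With siEZH2, where 3.90% of all genes rose, those 3 of the 6 rose, by 1.00 ± 0.13, 1.18 ± 0.18 and 0.89 ± 0.14.

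TMEM63B, whose start lies 52.3 kb from that of SCIRT, passed the test in 1 of the sphere comparisons and in neither siRNA table. It stood at 1118 and 1085 in adherent cells, 939 and 1015 at 16 h and 1118 and 907 at 5 d. Only the 16 h fall passed, at -0.17 ± 0.07 (limma adjusted p = 0.0464), and it was lost when any 1 of the 4 compared libraries was left out, at adjusted p of 0.0547 to 0.325, and with no filter (0.0619), with DESeq2 (0.122) or with eBayes without trend or robust (0.308). The 5 d difference of -0.13 ± 0.07 did not pass (limma adjusted p = 0.14). It came to -0.28 and was called without 5 d replicate 1. In the siRNA tables its groups overlapped, at 6280 to 7057 in the siSCIRT table and 4029 to 4886 in the siEZH2 table. It differed by 0.06 ± 0.05 in the SCIRT knockdown (95% interval -0.06 to 0.17) and with siEZH2 by 0.11 ± 0.12 (limma adjusted p = 0.667). Its relative TMEM63A fell by 0.44 ± 0.10 at 16 h and rose by 0.24 ± 0.10 at 5 d, and it passed in neither siRNA table.

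RSPH9, the cilium gene, was lower in spheres. It stood at 287 and 304 in adherent cells, 238 and 197 at 16 h and 176 and 262 at 5 d. Every sphere library was below both adherent ones, although the 5 d pair lay far apart. The falls were -0.45 ± 0.15 at 16 h (limma adjusted p = 0.0112) and -0.46 ± 0.15 at 5 d (limma adjusted p = 0.00941). The 16 h call was lost without 16 h replicate 2 (-0.31, adjusted p = 0.182) or adherent replicate 2 (0.0765), and the 5 d call without 5 d replicate 1 (-0.17, adjusted p = 0.345) or adherent replicate 2 (0.0673). Both were lost with eBayes without trend or robust, at adjusted p of 0.165 and 0.153. Reads on the exon bases it shares with MRPS18A cannot be told apart by strand. MRPS18A was also lower in spheres, at 518 in both adherent libraries, 441 and 456 at 16 h and 434 and 351 at 5 d. Its part in the RSPH9 values was not tested. In the siRNA tables RSPH9 was at 17.4 to 32.4, and its difference was 0.15 ± 0.25 with SCIRT knockdown (limma adjusted p = 0.761) and 0.36 ± 0.34 with siEZH2 (limma adjusted p = 0.621). Its CPM was 0.365 to 0.822 in those tables and 18.3 to 33.8 in the culture table. Whether RSPH9 was counted alike in them was not tested. None of 3 other radial spoke genes tested passed at 16 h, where 53.9% of all genes were called. At 5 d 1 rose (RSPH3) and 1 fell (RSPH10B2), where 55.2% of all genes were called. None of 3 passed for the mean of both siSCIRTs and none of 2 with siEZH2, where 14.4% and 6.84% of all genes were called.

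**Figure D4:**
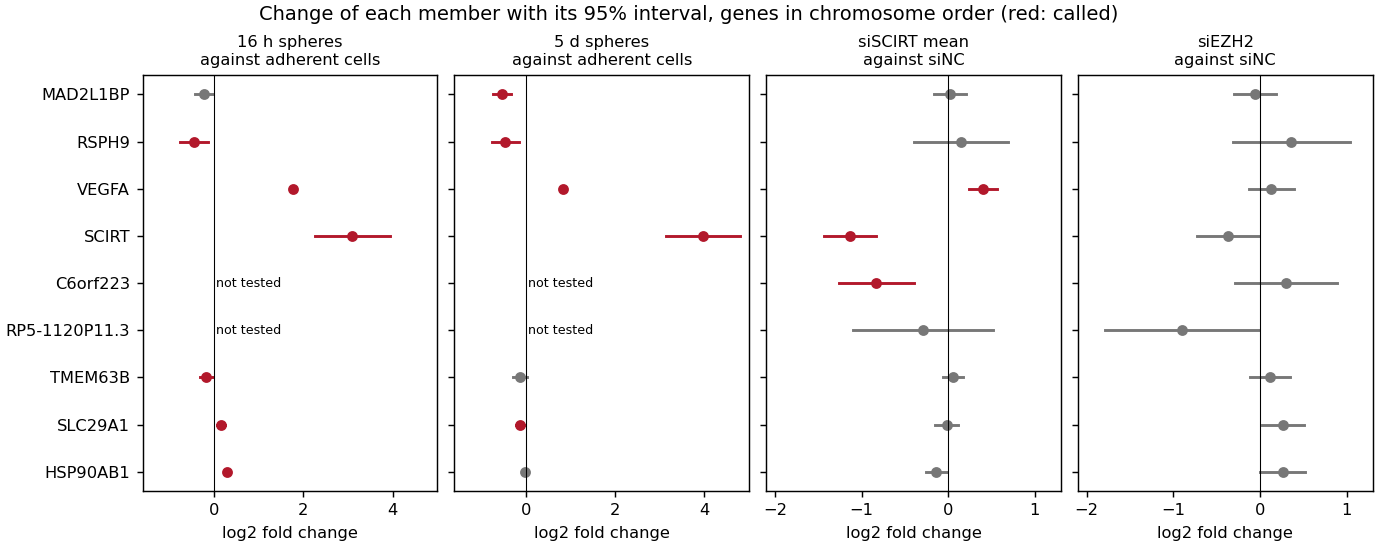
Log2 fold change of the 9 genes (points) with 95% intervals (lines) in 4 comparisons, ordered by lowest coordinate on the chromosome, red where called at a limma adjusted p under 0.05. SCIRT stands far to the right of its neighbours in both sphere comparisons, and in the SCIRT knockdown only C6orf223 was called on its side of 0, with VEGFA called on the other.

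Sphere culture moved a large share of all genes, and the neighbours' calls are read against it. At 16 h, 5 of 6 tested neighbours were called, 3 higher and 2 lower, where 53.9% of all genes tested were called, 27.4% higher and 26.5% lower. Among the 3 higher, SLC29A1 was lower in CPM. At 5 d, 4 of 6 were called, 1 higher and 3 lower, where 55.2% of all genes were called, 26.3% higher and 28.9% lower. From 16 h to 5 d, 4 of 6 were called, all lower, where 48.3% of all genes were called, 22.8% higher and 25.5% lower. With the ratio test, the change of all 6 neighbours differed from SCIRT's at both times, by -1.33 to -3.55 at 16 h and by -3.13 to -4.51 at 5 d. Since SCIRT was itself among the genes that changed most, 98.2% of all genes differed from it at 16 h and 99.4% at 5 d. All ratios of a comparison share SCIRT's own values and are not independent. At 16 h the SE of VEGFA's ratio, 0.33, was below that of SCIRT's own change, 0.41. The counts of genes that differ from SCIRT may therefore be too high.

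In the siRNA tables fewer neighbours were called. With siSCIRT 1, 2 of 8 were called (VEGFA higher, C6orf223 lower), where 10.2% of all genes were called, 4.63% higher and 5.56% lower. With siSCIRT 2 it was 1 of 8 (VEGFA), where 9.54% were called, 4.49% higher and 5.05% lower. For the mean of both it was the same 2 of 8, where 14.4% were called, 6.82% higher and 7.58% lower. By the ratio test 7 of 8 differed from SCIRT, as did 96.1% of all genes, and C6orf223 was the exception. Between the siRNAs limma called 0 of 8 neighbours and 0.0% of all genes, with 451 genes at an unadjusted p under 0.05 and 6 genes called by DESeq2. With siEZH2 0 of 8 neighbours were called, where 6.84% of all genes were called, 3.90% higher and 2.94% lower. These shares over all genes leaned on single libraries. With siSCIRT 1, 1693 genes were called with all libraries, 1072 without control replicate 1, 886 without control replicate 3, 945 without siSCIRT 1 replicate 2 and 976 without its replicate 3. With siSCIRT 2, in place of 1584, the counts were 922 and 769 without those controls and 910 without siSCIRT 2 replicate 3. For the mean of both siRNAs the 2390 came to 1461 and 1242 without those controls, and the 1082 with siEZH2 came to 339 without its control replicate 1 and 504 without its control replicate 2.

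In the wider interval, more genes fell than rose at both sphere times against adherent cells. The list held 38 other genes, those lying between the outermost of the 9 genes and the 15 nearest listed ones on each side. Some lie far off, as RUNX2 starts 1253.5 kb and CLIC5 2005.7 kb from the SCIRT start. At 16 h, 2 of 21 tested rose and 7 fell, where 27.4% of all genes rose and 26.5% fell. At 5 d 4 of 21 rose and 11 fell, where 26.3% rose and 28.9% fell. RP1-261G23.7, whose reads cannot be told apart from VEGFA's, was among those that rose at both times. The median log2 fold change was -0.12 at 16 h and -0.23 at 5 d, beside -0.01 and -0.02 over all genes. MRPL14, a mitochondrial ribosomal protein gene, fell by 0.52 ± 0.07 and 0.72 ± 0.07. RUNX2, a transcription factor gene of bone and of invasive breast cancer cells, rose by 0.79 ± 0.12 and 1.02 ± 0.12. CLIC5, an intracellular chloride channel family gene, fell at 16 h, from a mean of 41.2 in adherent cells to 0 in both 16 h libraries (limma adjusted p = 1.9e-07). After SCIRT knockdown 2 of 25 rose, CLIC5 by 0.94 ± 0.21 and RUNX2 by 0.35 ± 0.08. The RUNX2 values of knockdown and control libraries overlapped. POLH, a DNA polymerase gene, was the 1 that fell, by 0.27 ± 0.07. The share called was near the 14.4% over all genes. With siEZH2, 0 of 23 were called under limma.

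Several other genes resembled SCIRT more than any ranked neighbour did. Likeness was the Euclidean distance over the 8 group means of log2(normalized count + 1), each centred within its table, among 12567 genes that passed the filter in all tables. The 5 nearest genes were SERPIND1 (distance 0.72), ACOX2 (0.80), SYTL3 (0.96), SCNN1A (0.97) and HAS2-AS1 (0.97). They were chosen on these same group means, so their changes restate the choice and are given with no test. SERPIND1, which encodes heparin cofactor II, differed from adherent cells by 2.43 ± 0.39 at 16 h and 3.17 ± 0.39 at 5 d on the log2 scale, and from control by -0.92 ± 0.09 for the mean of both siRNAs. SCNN1A, an epithelial sodium channel subunit, differed by 3.52 ± 0.13 and 3.99 ± 0.13 in spheres and by -0.01 ± 0.06 in the knockdown. Among the neighbours, VEGFA ranked 1256, HSP90AB1 4897, SLC29A1 6415, TMEM63B 7358, MAD2L1BP 9548 and RSPH9 10087. C6orf223 and RP5-1120P11.3 could not be ranked, as they did not pass the filter in all tables.

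**Figure D5:**
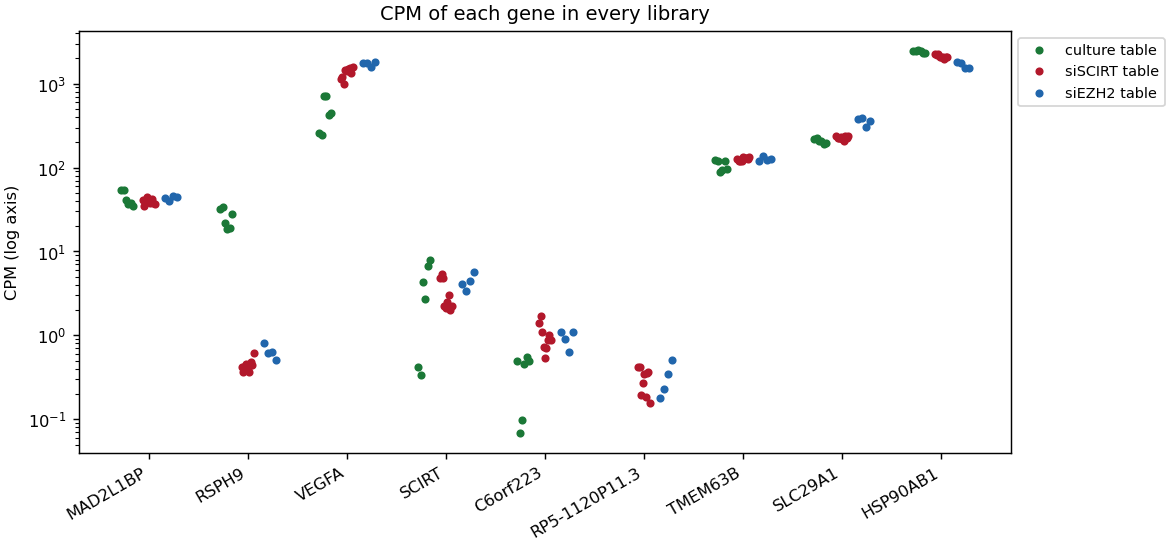
CPM of each of the 9 genes in every library (points, log axis), coloured by table. SCIRT spans the widest range within the culture table, and RSPH9 lies at 18.3 to 33.8 in the culture table and at or below 0.822 in the siRNA tables.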

How the data were processed

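The authors normalized 3 tables separately, 19 libraries in all. Per the file headers and values, culture and siSCIRT values as deposited are log2-like output of DESeq2's variance-stabilizing transform. The siEZH2 values as deposited are a linear signal, reads divided by a size factor. CASAVA 1.4, TopHat2, Partek and hg19 appear in the submitters' processing notes with no roles, and the counting program is not given in the sources used here. The labels' protocols name the TruSeq RNA v2 kit.

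Inverting the transform exactly and dividing by the step of each library gave whole reads for 100% of values (tolerance 0.05). The siSCIRT 2 columns are numbered, and the unnumbered siSCIRT columns were inferred to be siSCIRT 1. Normalized counts entered limma 3.58.1 (R 4.3.3), 1 fit per table, as log2(normalized count + 1) with eBayes trend and robust. Genes needed a mean of 10, and calls a two-sided Benjamini-Hochberg adjusted p under 0.05. A second fit took log2 of a gene minus log2 of SCIRT in the same library. The fits were tested on simulated data. Alternatives changed the tool (edgeR 4.0.16, DESeq2 1.42.0, both on recovered reads), pseudocount (8), filter (none, or a mean of 50), scaling (quantile), eBayes (neither trend nor robust), samples (compared groups alone, or 1 library fewer), scale (as deposited) and replicate block. The ratio without a filter was added after seeing the data. The main fits did not pair libraries by replicate number.

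The 9 genes and all gene lists were chosen with earlier results of these data known. Named genes were all 9, the 5 most like SCIRT, and up to 4 (interval) or 3 (other lists) with the smallest adjusted p. MRPS18A, and EZH2 as the siRNA target, were shown in addition after their values were seen. Layout came from GENCODE 29 and promoters from RefSeq (GRCh38.p14).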

Additional observations from a re-analysis of the deposited data

Results flagged for a closer look

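For 4 neighbours the change against adherent cells differed between the sphere times, by the limma test of 5 d against 16 h. These 2 changes share the adherent libraries. VEGFA differed by -0.93 ± 0.03 (adjusted p = 1.42e-23), MAD2L1BP by -0.32 ± 0.10 (adjusted p = 0.0071), SLC29A1 by -0.30 ± 0.05 (adjusted p = 1.19e-06) and HSP90AB1 by -0.30 ± 0.01 (adjusted p = 2.63e-19). Quantile normalization turned the HSP90AB1 difference to 0.18, and the MAD2L1BP call was lost with DESeq2 (adjusted p = 0.0558) and without 16 h replicate 1 (-0.25, adjusted p = 0.0871). All 4 were lower at 5 d than at 16 h in normalized counts, where SCIRT stood higher by 0.87 ± 0.41 (adjusted p = 0.0799). In CPM these falls were smaller. SLC29A1 went from 206 in both 16 h libraries to 191 and 195, and HSP90AB1 from 2490 and 2480 to 2330 and 2320. MAD2L1BP went from 41.2 and 37.2 CPM to 37.3 and 34.7, overlapping, and VEGFA from 718 and 722 to 424 and 443.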

How the results depend on the processing

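The sphere rises and the knockdown falls of SCIRT kept their direction and call in every alternative run. Its 5 d against 16 h difference, not called at 0.87, was called with a pseudocount of 8 (0.76), only the compared groups (0.87), edgeR (0.84) and the values as deposited (0.0295). SCIRT between the siRNAs ran from -0.19 to 0.11 with each library left out. Of neighbours called, eBayes without trend or robust left 2 at 16 h (losing TMEM63B, RSPH9 and SLC29A1), 2 at 5 d (losing RSPH9 and SLC29A1), and, losing VEGFA, 1 with siSCIRT 1 and 0 with siSCIRT 2. DESeq2 called 2 with siSCIRT 2. Leaving out each library gave 3 to 5 at 16 h, 2 to 4 at 5 d, 1 to 2 with siSCIRT 1 and 1 to 2 for the mean of both siRNAs.

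Deviations from group means were correlated between libraries of unlike groups in the siSCIRT table. Same-number libraries ran from -0.01 to 0.45, with replicate 1 at 0.43 to 0.45, and different-number libraries from -0.33 to 0.28. Whether replicate numbers pair the libraries was not tested. The replicate block called 2 neighbours with siSCIRT 2, adding HSP90AB1 (adjusted p = 0.0421), and 3 for the mean of both (HSP90AB1 adjusted p = 0.03). It gave 3144, 3110 and 4030 genes called over all with siSCIRT 1, siSCIRT 2 and their mean, in place of 1693, 1584 and 2390, and 532 in place of 1082 with siEZH2. Between the siRNAs it called 7 genes, no filter 2 and only the compared groups 1. eBayes without trend or robust called 1009 genes with siSCIRT 1, 870 with siSCIRT 2 and 0 with siEZH2, and DESeq2 called 678 with siEZH2.

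Quantile normalization turned HSP90AB1 at 16 h (-0.41) and from 16 h to 5 d (0.18), RSPH9 from 16 h to 5 d (0.0239) and SLC29A1 in the knockdown mean (0.0219). RSPH9 from 16 h to 5 d also turned with DESeq2 (0.0033) and as deposited (0.0001), and RSPH9 with siSCIRT 1 with edgeR (0.0028) and as deposited (0.00). The causes were not tested.

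Signs of uncalled differences turned when libraries were left out. C6orf223 ran from -0.10 to 0.71 with siEZH2. MAD2L1BP ran from -0.0729 to 0.0803 in the knockdown mean, -0.0361 to 0.12 with siSCIRT 1, -0.11 to 0.0436 with siSCIRT 2, -0.0128 to 0.14 between siRNAs and -0.13 to 0.0109 with siEZH2. RP5-1120P11.3 ran from -0.61 to 0.12 with siSCIRT 2 and -0.45 to 0.17 between siRNAs. RSPH9 ran from -0.30 to 0.28 from 16 h to 5 d and -0.11 to 0.0914 with siSCIRT 1. SLC29A1 ran from -0.0494 to 0.0337 in the knockdown mean and -0.12 to 0.0006 with siSCIRT 1. TMEM63B ran from -0.11 to 0.20 from 16 h to 5 d, -0.28 to 0.0214 at 5 d and -0.0574 to 0.0014 between siRNAs. VEGFA ran from -0.0064 to 0.27 with siEZH2 and -0.12 to 0.0059 between siRNAs.

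Depth limits C6orf223 in culture (1 to 6 reads a library), adherent SCIRT (5 reads each) and RP5-1120P11.3. Groups of 2 or 3 libraries limit every interval.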

Other observations

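RSPH9 had very different levels in the culture and siRNA tables. It stood at 18.3 to 33.8 CPM in the 6 culture libraries and at 0.365 to 0.822 in the 13 siRNA libraries. MRPS18A, which shares 604 exon bases with it on the opposite strand, stood at 37.4 to 57.6 in the culture table and 13.0 to 21.8 in the siRNA tables. MRPL14, which shares no exon base with its neighbour TMEM63B, stood at 61.0 to 109 and at 70.7 to 103. RP1-261G23.7, inside VEGFA exons, was listed in the culture table alone. Whether overlapping genes were counted alike in the 3 tables was not tested.

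SCIRT and C6orf223 also stood in different proportion between tables. Over the 5 d libraries there were 108 reads of SCIRT and 8 of C6orf223, and over the siSCIRT controls, also grown in sphere medium, 908 and 249.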
